A study of Homo sapiens with 24 samples.

Results

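MV4-11 cells treated with PRT220 and GSK-LSD1 together were compared with cells given DMSO, the solvent control. The comparison takes 6 of the 24 libraries of the series, chosen by their labels: 3 from the combination and 3 from DMSO, named A, B and C in each group. MV4-11 is an established human acute myeloid leukaemia line of monoblastic type that carries the MLL-AF4 fusion and an activated FLT3 receptor. Every library is labelled PRMT5 +/+. The combination held PRT220, a PRMT5 inhibitor, at 3 nM and GSK-LSD1, an LSD1 inhibitor, at 10 nM for 3 days, and cells given PRT220 alone or GSK-LSD1 alone at the same doses and time, 3 libraries each, served for direct tests of the combination against each agent. Poly(A) RNA was sequenced without strand information, and the series asked which expression changes accompany the joint toxicity of these inhibitors. The labels do not say whether A, B and C came from separate cultures. The p-values therefore reflect only the spread among libraries within groups, estimated over all 24 of the series, which may be technical.

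PRMT5 is the main enzyme that adds symmetric dimethyl marks to arginine. Its substrates include histones and the Sm proteins of the spliceosome, and its inhibition is known for changes in splicing. LSD1 is the product of KDM1A. It demethylates lysine 4 of histone H3 and works with CoREST and with the repressors GFI1 and GFI1B, which hold back myeloid genes in blood progenitors. LSD1 inhibitors are known for inducing myeloid differentiation markers in leukaemia cells of this kind.

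The 6 libraries held from 34554159 (combination B) to 61090593 (DMSO B) estimated counts. Levels are in CPM, a gene's counts for every 1000000 counts of its library, with TMM scaling between libraries. This unit does not correct for gene length, and levels are therefore compared between libraries and not between genes. A gene is called where the quasi-likelihood test of edgeR gave a p, adjusted over all genes by Benjamini and Hochberg, below 0.05. An adjusted p of a gene's level comes from this test. Genes of the labelled cell type were present in both groups: FLT3 was at 697 ± 12 CPM in DMSO and 585 ± 15.7 CPM in the combination, and MEIS1 and HOXA9, targets of the fusion, were at 152 ± 11.3 and 56.4 ± 3.37 CPM in DMSO (SD, n = 3). The DMSO C and combination C libraries stood apart from A and B of their groups. RRP9, a nucleolar RNA factor, had 1.10 and 1.23 CPM before scaling there, against 32 to 36.1 CPM in the other 4. Within each group the pairs with C also differed most over all genes (chi-square per gene 25.4 and 35.2 against 15.1 for DMSO A and B, and 14.4 and 23.8 against 9.82 for combination A and B). Summed mitochondrial transcripts were at 3705 CPM in DMSO C against 5271 to 6162 CPM in the other 5. In the series 8 libraries were low in RRP9 (under 10 CPM before scaling), among them all 3 of PRT220 alone. Counts without both C libraries are given where they move by over 1.5 times.

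Of 16640 genes tested, 7735 were called (46.5%), 4064 higher (24.4%) and 3671 lower (22.1%) in the combination. A change of at least 2-fold was seen in 828 of the higher (4.98% of genes tested) and 337 of the lower ones (2.03%). In 53% of genes every library of one group lay above every library of the other, and genes that were also called made up 44.1%. The median log2 fold change over all genes was 0.04. The counts for gene lists below are read against these shares. Without both C libraries 6557 genes were called, and the counts of the lists that lead the text were close to those with them: 22 of 23 cholesterol, 21 of 27 amino acid response, 27 of 32 S phase and 24 of 30 G2 and M phase genes were lower, and 9 of 9 MHC class II and 14 of 19 monocyte genes higher. Of the 49 lists, 19 are drawn in the plot of list members, where the medians run from -1.06 for cholesterol synthesis to 2.38 for MHC class II.

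**Figure D1:**
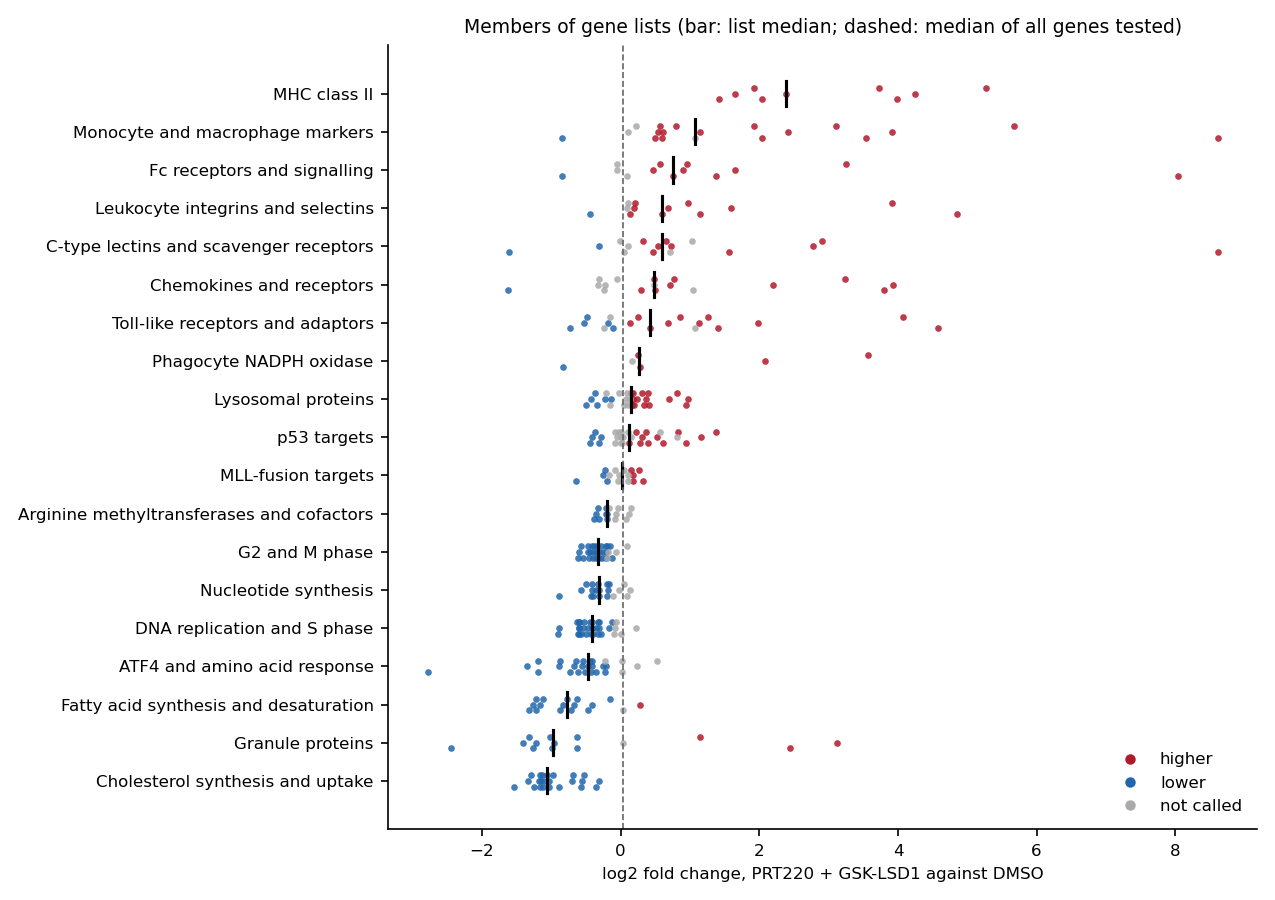
Log2 fold change of PRT220 plus GSK-LSD1 against DMSO (x axis) for each tested member of 19 gene lists (rows). Red and blue points passed the test as higher or lower, grey points did not, black bars are list medians and the dashed line is the median over all genes tested (0.04). All points for cholesterol synthesis lie left of 0 and all for MHC class II right of 0. The point for CD163, past 8, is a fitted value for a gene with no count in DMSO and is not a bound.

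Genes of lipid synthesis were lower. All 23 tested genes of cholesterol synthesis and uptake fell (median log2 fold change -1.06). Of 17 genes of fatty acid synthesis and desaturation 15 fell and 1 rose (median -0.77). The sterol pathway builds cholesterol from acetyl-CoA through mevalonate, and the fatty acid enzymes make and desaturate long-chain acyl groups. Transcription of both sets is known to depend on the SREBP factors, which bind promoters together with the CCAAT-box factor NF-Y. The promoters of HMGCS1 and MVD are shown because both genes were among the largest falls of the list and both hold CCAAT boxes. They are RefSeq sequences of GRCh38.p14, from 250 bases before to 50 bases after the annotated start, written 5′ to 3′ on the gene's strand, with matches to CCAAT on either strand in capitals. HMGCS1 lies on the minus strand at chr5:43313363-43313662 and holds 2 matches, and MVD lies on the minus strand at chr16:88663042-88663341 and holds 3.
HMGCS1: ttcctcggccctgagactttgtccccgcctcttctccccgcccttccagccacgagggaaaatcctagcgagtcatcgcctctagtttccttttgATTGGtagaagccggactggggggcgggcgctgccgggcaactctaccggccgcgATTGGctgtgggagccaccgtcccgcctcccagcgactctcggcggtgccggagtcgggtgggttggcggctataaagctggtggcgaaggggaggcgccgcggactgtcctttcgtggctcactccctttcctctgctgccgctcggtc
MVD: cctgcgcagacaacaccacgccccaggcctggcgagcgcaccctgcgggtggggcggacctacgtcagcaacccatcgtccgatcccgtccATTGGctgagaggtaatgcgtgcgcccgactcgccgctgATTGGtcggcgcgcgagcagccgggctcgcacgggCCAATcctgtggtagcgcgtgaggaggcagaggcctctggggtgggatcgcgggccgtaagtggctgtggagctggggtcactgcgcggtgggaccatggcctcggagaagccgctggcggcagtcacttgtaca
CCAAT on either strand was found in 15 of the 18 cholesterol genes with a promoter in the RefSeq table. It was found in 8 of 17 fatty acid genes, against 35.7% of all 27305 promoters of this length. The amino acid response list, described below, had it in 13 of 22 genes, and the monocyte and macrophage markers in 5 of 16. In all 10 motifs were searched, and not all are reported. A core of the sterol regulatory element, TCACNCCAC, was found in SREBF2 alone of the cholesterol list and in 1.15% of all promoters. These are matches of letters in a window, not measured binding.

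HMGCS1 (ENSG00000112972, chromosome 5, 43289395 to 43313512), the HMG-CoA synthase, had 635, 735 and 652 CPM in DMSO A, B and C and 233, 233 and 232 CPM in the combination. The combination libraries were close together and all lay far below the lowest DMSO library, and the log2 fold change was -1.53 ± 0.0843 (SE, adjusted p = 7.33e-12). MVD, which makes isopentenyl pyrophosphate (ENSG00000167508, chromosome 16, 88651935 to 88663161), went from 109.7, 131 and 141 CPM to 50.9, 49.4 and 50.8 CPM. Its groups did not overlap either, with a log2 fold change of -1.34 ± 0.104 (adjusted p = 1.42e-09). CYP51A1, the lanosterol demethylase, went from 508, 564 and 538 to 218, 227 and 229 CPM, a log2 fold change of -1.26. IDI1, an isomerase of the pathway, fell by 1.17 on the log2 scale. The smallest falls of the list were in PMVK (-0.31) and SREBF2 (-0.36), the latter a factor of the pathway itself. ACAT2, whose span overlaps that of TCP1 on the other strand, had a log2 fold change of -1.30, and without strand information reads of such pairs cannot be told apart where their exons overlap.

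Among the fatty acid genes, FASN, the fatty acid synthase (ENSG00000169710, chromosome 17, 82078333 to 82098332), had 2371, 2179 and 2274 CPM in DMSO and 967, 911 and 956 CPM in the combination. This was the largest loss in CPM of any gene that met the naming conditions, and the log2 fold change was -1.27 ± 0.0534 (adjusted p = 1.52e-13). SCD, the stearoyl-CoA desaturase (ENSG00000099194, chromosome 10, 100347124 to 100364834), went from 1814, 2020.0 and 1856 CPM to 719.6, 769.8 and 787 CPM, a log2 fold change of -1.32. ACLY, which makes cytosolic acetyl-CoA, went from 1056, 1065 and 993 to 585, 572 and 597 CPM (-0.83). None of these had overlapping groups. The desaturase genes FADS1 (-1.22) and FADS2 (-1.17), whose spans overlap on opposite strands, ACSS2 (-0.87), the carboxylase ACACA (-0.64) and the factor SREBF1 (-0.72) fell as well. The exceptions were ELOVL1, an elongase of saturated chains, which rose from 28.6 ± 1.05 to 34.8 ± 2.82 CPM (0.28, adjusted p = 0.000901), and ELOVL5, at 0.03 and not called. Genes of sterol efflux and targets of the LXR receptors, taken as 1 list, went both ways, with 6 of 13 higher and 3 lower. ABCA7 went from 86.9 ± 9.59 to 199 ± 2.76 CPM and ABCA6 from 5.16 ± 0.306 to 28.1 ± 1.81 CPM, while ABCA1, the main cholesterol exporter, fell from 16.6 ± 1.45 to 8.6 ± 1.07 CPM.

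Most lipid genes were also lower than with each single agent. Of the 23 cholesterol genes, 21 were lower than with PRT220 alone and 18 lower than with GSK-LSD1 alone, in direct tests that called 18.8% and 8.34% of all genes lower. Lower than DMSO and both agents were 17 of the 23 cholesterol and 11 of the 17 fatty acid genes, compared with 600 of all genes (3.61%). HMGCS1 was at 412 ± 52.7 CPM with PRT220 and 366 ± 30.5 CPM with GSK-LSD1, and the combination was lower than either (log2 differences -0.82 and -0.65, adjusted p = 1.17e-07 and 1.8e-05). For FASN the single agents gave 1559 ± 126 and 1371 ± 26.5 CPM, and the combination differed from them by -0.72 and -0.54 on the log2 scale (adjusted p = 1.09e-09 and 1.14e-06). The direct tests share the combination libraries with each other. Over all genes the 1387 lower calls against GSK-LSD1 alone became 900 without GSK-LSD1 A, 829 without GSK-LSD1 B and 910 without combination B, and the higher calls went from 1166 to 752 without combination B. In the comparison with PRT220 alone, all 3 PRT220 libraries and 1 combination library were low in RRP9, and a term for those libraries changed the calls over all genes from 6350 to 5050.

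**Figure D2:**
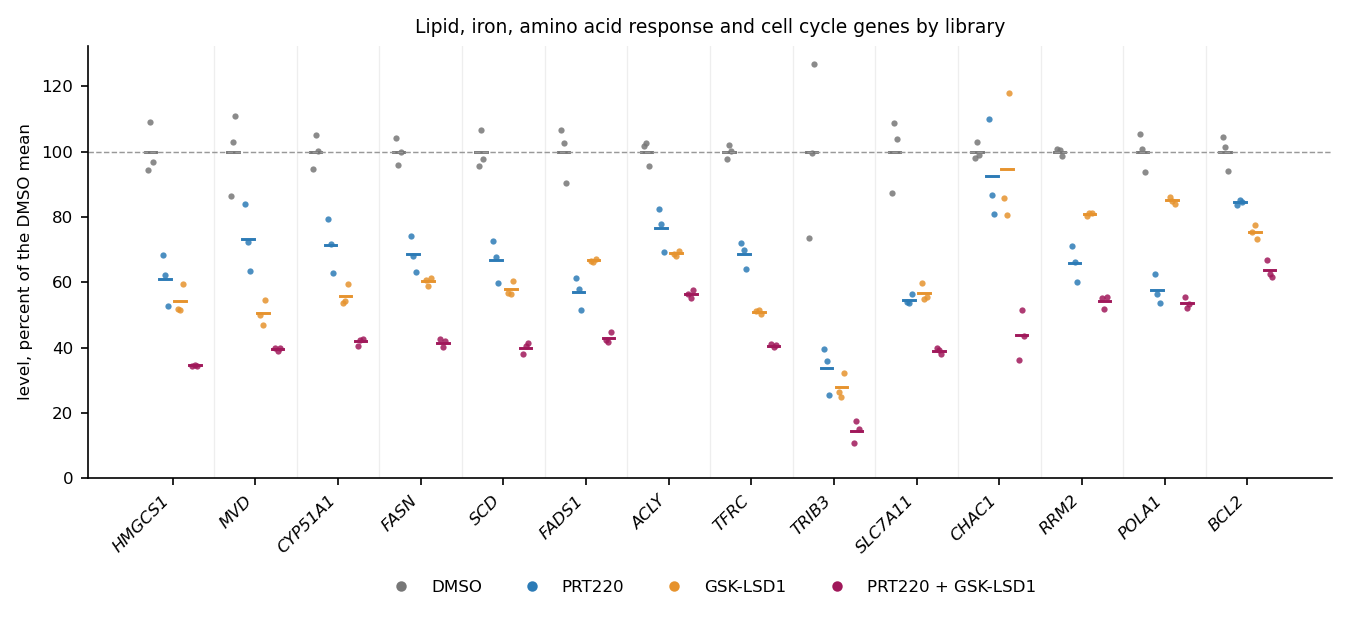
Level of 14 genes in each library as a percentage of that gene's DMSO mean (y axis, from 0; dashed line at 100), for DMSO, PRT220, GSK-LSD1 and the combination. Points are single libraries and bars group means (n = 3). The combination has the lowest group mean for each gene drawn, for example 233 CPM for HMGCS1 against a DMSO mean of 674 CPM.

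The main receptor for iron uptake fell. TFRC, the transferrin receptor (ENSG00000072274, chromosome 3, 196027183 to 196082189), had 1954, 2037 and 2002 CPM in DMSO and 819.9, 801 and 815 CPM in the combination, with a log2 fold change of -1.30 ± 0.0545 (adjusted p = 1.4e-13) and no overlap. It was at 1372 ± 82.9 CPM with PRT220 and 1019 ± 12.5 CPM with GSK-LSD1, both higher than the combination in the direct tests (adjusted p = 7.13e-10 and 0.000262). Across 18 iron and heme genes 6 were called higher and 6 lower, so the list had no common direction. These counts became 4 and 3 without DMSO C, and 3 and 4 without combination B or without both C libraries.

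Genes of the amino acid response were also lower. This response raises amino acid import and synthesis through the factor ATF4. Of its 27 tested genes 22 fell and 0 rose, with a median of -0.46. ATF4 itself went from 368, 386 and 436 CPM to 249, 281 and 285 CPM (-0.55, adjusted p = 2.48e-06). TRIB3, a pseudokinase induced by ATF4 (ENSG00000101255, chromosome 20, 362835 to 397559), had 39.4, 53.3 and 67.8 CPM in DMSO and 5.86, 9.42 and 8.12 CPM in the combination. The highest combination library was well under the lowest DMSO library, and the log2 fold change was -2.78 ± 0.208 (adjusted p = 7.86e-10). SLC7A11, the cystine importer, went from 28.2, 35.1 and 33.5 to 12.9, 12.7 and 12.3 CPM (-1.36), and the serine synthesis genes PSAT1 (-0.73) and PHGDH (-0.68) fell too.

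CHAC1, which degrades glutathione (ENSG00000128965, chromosome 15, 40952962 to 40956519), is shown with its promoter because it was among the 4 largest falls of the list and carries an ATF4-type element. CHAC1 lies on the plus strand at chr15:40953221-40953520 (RefSeq, GRCh38.p14, 250 bases before to 50 after the start), and the capitals mark the match to TGATGNAA on the opposite strand.
CHAC1: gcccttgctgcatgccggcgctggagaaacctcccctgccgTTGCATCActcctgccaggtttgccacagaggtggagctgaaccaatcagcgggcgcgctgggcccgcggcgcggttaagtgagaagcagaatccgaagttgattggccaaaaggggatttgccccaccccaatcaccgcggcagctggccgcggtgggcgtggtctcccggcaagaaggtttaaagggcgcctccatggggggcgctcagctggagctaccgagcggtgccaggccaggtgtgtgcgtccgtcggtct
TGATGNAA on either strand was found in 4 of the 22 genes of this list with a promoter in the table (CHAC1, ASNS, SLC3A2 and SLC7A1) and in 3.67% of all promoters. CHAC1 had 8.89, 9.34 and 8.98 CPM in DMSO and 3.28, 4.68 and 3.94 CPM in the combination, without overlap (log2 fold change -1.20 ± 0.262, adjusted p = 0.00078). With PRT220 it was at 8.4 ± 1.4 CPM and with GSK-LSD1 at 8.6 ± 1.83 CPM, and the combination was lower than both (adjusted p = 0.00264 and 0.00581). Lower than DMSO and both agents were 11 of the 27 genes, against the 3.61% of all genes given above. Against PRT220 alone 15 of the 27 were lower and 6 higher, where 18.8% and 19.4% of all genes were called. For TRIB3 the single agents gave 18 ± 3.93 and 15 ± 2.07 CPM. Of 20 cytosolic aminoacyl-tRNA synthetases, which charge tRNAs, 11 fell and SARS1 rose, with AARS1 at -0.61 and GARS1 at -0.48. Of 17 chaperones of the endoplasmic reticulum 13 fell, among them HSPA5 (-0.46) and CALR (-0.49), and HERPUD1 rose.

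Replication and division genes fell together by smaller amounts. Of 32 genes of DNA replication and S phase 27 fell and 0 rose (median -0.42), of 30 genes of G2 and M phase 26 fell and 0 rose (median -0.33), and of 20 nucleotide synthesis genes 15 fell and 0 rose (median -0.31). RRM2, the small subunit of ribonucleotide reductase (ENSG00000171848, chromosome 2, 10120698 to 10131419), had 418, 417 and 409 CPM in DMSO and 229, 215 and 229.6 CPM in the combination, and its groups lay far apart (-0.88 ± 0.048, adjusted p = 6.22e-12). POLA1 (ENSG00000101868, chromosome X, 24693919 to 24996986), the DNA polymerase that primes replication, went from 116, 111 and 103 to 61, 57.4 and 58.7 CPM (-0.90). It was at 63.3 ± 5.11 CPM with PRT220, where the test of the combination against it gave a log2 difference of -0.10 (adjusted p = 0.159), and at 93.6 ± 1.15 CPM with GSK-LSD1, from which it differed by -0.67 (adjusted p = 1.52e-07). CCNA2, the S and G2 cyclin, whose span overlaps EXOSC9, went from 184, 169.8 and 166 to 121, 112 and 117 CPM. TOP2A (topoisomerase II alpha) fell by 0.60 and MKI67, a proliferation marker, by 0.36 on the log2 scale. Lower than DMSO and both agents were 17 of the 32 S phase and 13 of the 30 G2 and M phase genes. Since a bulk sample sums over cells, fewer cells in a phase and less RNA per cell cannot be told apart.

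Other metabolic lists moved less. Of 23 glycolysis genes 13 fell and 4 rose, and the 13 became 7 without DMSO C, without combination A or without both C libraries. LDHA (-0.39) and the transporter SLC2A3 (-0.54) fell, and HK1 (0.43) and PFKM (0.89), whose span overlaps SENP1, rose. Of 26 nuclear-encoded respiratory chain subunits 16 fell and 1 rose, with a median of -0.17. The 16 became 9 without both C libraries, and the 1 higher call was lost there as well. It was also lost with RLE size factors, DESeq2, no filter on low counts, a replicate block or only the 2 groups, and without DMSO A, DMSO C, combination B or combination C. Of 26 ribosome biogenesis genes of the nucleolus 15 fell and 0 rose (median -0.20).

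**Figure D3:**
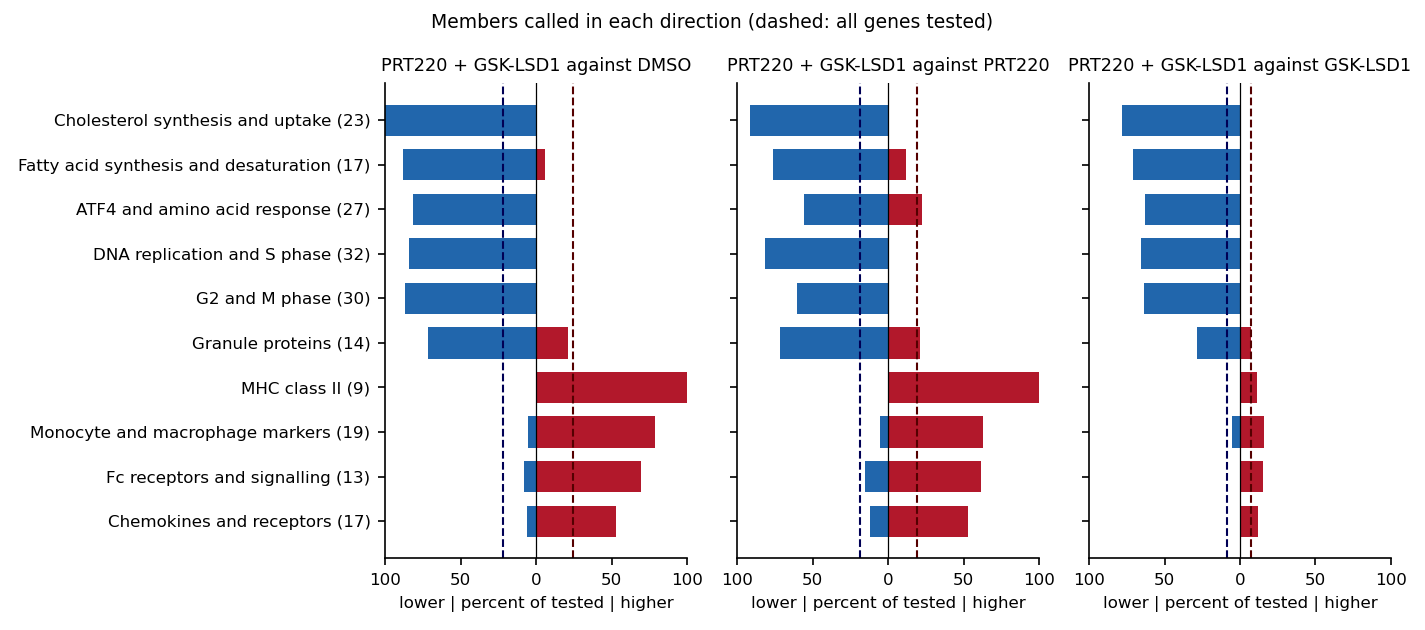
Percentage of tested members called higher (red, right) or lower (blue, left) in PRT220 plus GSK-LSD1 against DMSO, against PRT220 alone and against GSK-LSD1 alone, for 10 lists with the number tested in parentheses. Dashed lines give the share of all genes tested that were called in each direction (24.4% and 22.1% against DMSO). Lipid, amino acid response and cell cycle lists stand past the dashed line on the lower side in all 3 panels, while MHC class II stands at the full 9 of 9 against DMSO and PRT220 and at 1 of 9 against GSK-LSD1.

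In most phagocyte lists more genes rose than fell. The complement list went both ways, with 3 of 12 tested genes higher and 4 lower. Its summed level fell from 389 to 455 CPM in DMSO to 303 to 324 CPM in the combination. Of 19 tested monocyte and macrophage markers 15 rose and FCGR1A fell, with a median of 1.07. The summed level of the list went from 1431 to 1453 CPM in the DMSO libraries to 3242 to 3527 CPM in the combination. LYZ made up most of that sum in every library, and LYZ and VCAN, both given below, made up most of its rise. The members CD68, FCN1 and CD14 were not called (0.10, 0.22 and 1.07), and MAF and MRC1 had too few counts to be tested. CD163, a scavenger receptor of macrophages, had 0 counts in every DMSO library and 0.838, 1.38 and 1.39 CPM in the combination, which is at least 56.7-fold higher when DMSO is set to a floor of 3 counts over its 3 libraries, or 0.021 CPM before scaling. The floor covers counting error only. MPEG1, a pore-forming protein of macrophages, went from 41.5, 47.3 and 43.7 to 157, 174 and 175 CPM (1.93). LYZ, lysozyme (ENSG00000090382, chromosome 12, 69348341 to 69354234), had 954, 901 and 894 CPM in DMSO and 1951, 2035 and 2097 CPM in the combination, the largest gain in CPM under the naming rule. It was higher still with GSK-LSD1 alone, at 2477 ± 77.1 CPM, and the combination was lower than that (log2 difference -0.29, adjusted p = 0.00274).

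The phagocyte NADPH oxidase makes superoxide from a membrane pair, CYBB and CYBA, and cytosolic partners. CYBB, its catalytic subunit (ENSG00000165168, chromosome X, 37780011 to 37813461), had 3.35, 3.71 and 3.75 CPM in DMSO and 41.5, 45.8 and 40.8 CPM in the combination. The group means were more than a factor of 10 apart, with a log2 fold change of 3.56 ± 0.0895 (adjusted p = 1.43e-16). With PRT220 it was at 10.3 ± 0.812 CPM and with GSK-LSD1 at 18.1 ± 0.831 CPM, and the combination was higher than both (adjusted p = 1.36e-13 and 7.17e-09), as it was for 361 of all genes tested (2.17%). CYBA, its partner, was at 183, 194 and 217 and 208, 224 and 231 CPM with overlapping groups and was not called (0.16, adjusted p = 0.0631). Of the 6 genes of the oxidase list 4 rose and 1 fell, with log2 fold changes from -0.84 to 3.56.

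Toll-like receptors sense microbial products and signal through adaptors. Of 19 receptors and adaptors 11 rose and 5 fell (median 0.42), and the members that moved did not share 1 direction. The summed level of this list fell, from 941 to 1003 CPM in DMSO to 853 to 873 CPM in the combination. TICAM2, the bridging adaptor of TLR4, went from 0.818, 1.3 and 0.925 CPM to 18.4, 16.2 and 17.8 CPM (4.08 ± 0.311, adjusted p = 1.05e-09), with the limit that a readthrough model with TMED7 shares its exons. LY96, the TLR4 co-receptor MD-2, went from 0.0545, 0.0989 and 0.113 to 2.19, 2.14 and 2.4 CPM, with 2 to 6 counts per DMSO library. TLR1, whose span overlaps TLR6, rose from 13 ± 1.09 to 34.5 ± 1.36 CPM, and TLR8 (1.98) and the adaptor MYD88 (0.85) rose as well. TLR2, the partner of TLR1, had 187, 188 and 167 CPM in DMSO and 111, 107 and 107 CPM in the combination, a fall without overlap (-0.74 ± 0.0594, adjusted p = 2.5e-09). TLR4 fell as well, from 23 ± 1.45 to 16.5 ± 0.455 CPM.

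Fc receptors bind antibodies, and 9 of 13 genes of that list rose and 1 fell (median 0.75). FCRLA (ENSG00000132185, chromosome 1, 161706972 to 161714352), a relative of the Fc receptors that stays inside the cell, had 0.136, 0.363 and 0.587 CPM in DMSO and 90.7, 105 and 102 CPM in the combination. Its log2 fold change of 8.04 was the largest among non-overlapping called genes whose higher group averaged at least 5 CPM. PRT220 alone left it at 0.324 ± 0.0803 CPM, GSK-LSD1 alone gave 69.7 ± 6.02 CPM, and the combination was higher than the latter (0.51, adjusted p = 0.0274). FCGR2B, the inhibitory receptor (3.25), lies in the same cluster on chromosome 1 and has close copies, so its reads are uncertain. The signalling chain FCER1G rose from 8.71 ± 0.513 to 16.2 ± 1.9 CPM, and the high-affinity receptor FCGR1A, which also has close copies, fell from 68.3 ± 5.38 to 38 ± 1.32 CPM. Among C-type lectins and scavenger receptors 9 of 16 rose and 2 fell. CLEC5A (2.90) and CLEC4A (2.78) rose from under 1 CPM, while CD36, a receptor for oxidised lipids, fell from 43.1, 51.1 and 47.1 to 14.7, 15.2 and 16.2 CPM (-1.62).

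Adhesion and homing genes rose in 10 of 13 cases, and ITGB1, the beta-1 integrin, fell (-0.45). ITGAM, the CD11b integrin (ENSG00000169896, chromosome 16, 31259967 to 31332892), had 2.13, 3.66 and 3.32 CPM in DMSO and 38.9, 49.1 and 50.8 CPM in the combination. The groups were far apart, with a log2 fold change of 3.91 ± 0.173 (adjusted p = 2.99e-13), and the combination was above PRT220 alone (7.06 ± 0.441 CPM) and GSK-LSD1 alone (26.4 ± 3.02 CPM; adjusted p = 4.08e-11 and 0.000788). ITGA4, the alpha-4 integrin, rose from 672 ± 33.6 to 1079 ± 15 CPM and was at 1077 ± 23.6 CPM with GSK-LSD1 alone, where the log2 difference was 0.00 (adjusted p = 0.979). Of 17 chemokines and their receptors 9 rose and CX3CR1 fell. The receptor CMKLR1 went from 0.491, 0.775 and 0.767 to 7.71, 10.4 and 10.6 CPM and the chemokine CCL2 from 0.436, 0.742 and 0.564 to 4.61, 5.36 and 6.82 CPM. CX3CR1, the fractalkine receptor, went from 7.64, 9.48 and 8.26 to 2.46, 3.22 and 2.57 CPM (-1.63), and the combination lay above GSK-LSD1 alone there (1.66 ± 0.355 CPM, adjusted p = 0.00291). With PRT220 alone it was at 12.8 ± 0.55 CPM.

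**Figure D4:**
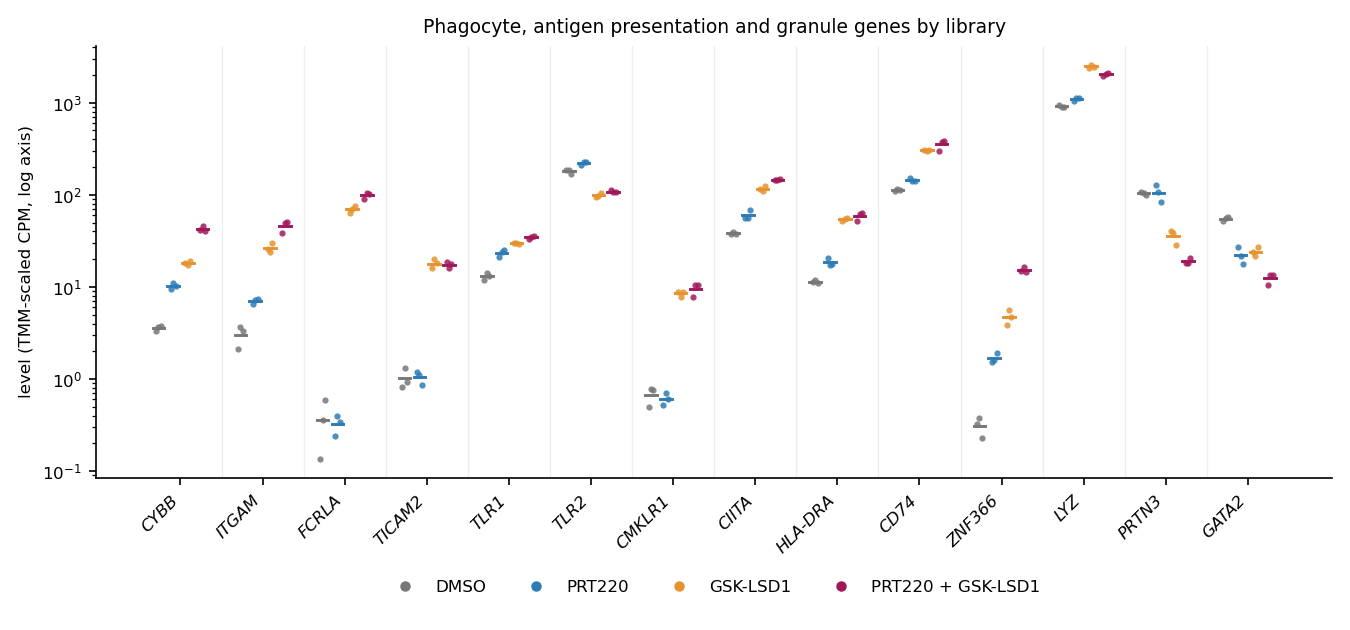
Level (TMM-scaled CPM, log axis) of 14 phagocyte, antigen presentation, granule and regulator genes in each library of DMSO, PRT220, GSK-LSD1 and the combination. Points are single libraries and bars group means (n = 3). The combination is the highest group for CYBB and ITGAM, sits beside GSK-LSD1 alone for TICAM2 and CMKLR1, and is the lowest for PRTN3 and GATA2.

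Antigen presentation through MHC class II rose in all 9 tested genes, with a median of 2.38. CIITA, the master activator of these genes (ENSG00000179583, chromosome 16, 10866222 to 10943021), had 38, 39.5 and 37.8 CPM in DMSO and 146, 145 and 147 CPM in the combination, with narrow groups that did not overlap (1.93 ± 0.0789, adjusted p = 1e-13). HLA-DRA, the nearly invariant alpha chain of HLA-DR, went from 11.2, 11.8 and 10.9 to 52.2, 61.7 and 63.1 CPM (2.38). CD74, the chaperone that fills the class II groove (ENSG00000019582, chromosome 5, 150401637 to 150412929), went from 110.2, 114 and 114 CPM to 299.8, 376 and 380.2 CPM (1.64 ± 0.0923, adjusted p = 1.03e-11). The means of HLA-DQA1, HLA-DPA1, HLA-DPB1 and HLA-DMB went from 0.0386 to 0.142 CPM in DMSO to 0.840 to 1.85 CPM in the combination, and HLA-DMB had at most 4 counts in a DMSO library. HLA genes are polymorphic and alike, so counts of single members are uncertain. The promoter of CD74 is shown because the Y box of class II promoters is a CCAAT element. CD74 lies on the minus strand at chr5:150412861-150413160 (RefSeq, GRCh38.p14, 250 bases before to 50 after the start), with the match in capitals.
CD74: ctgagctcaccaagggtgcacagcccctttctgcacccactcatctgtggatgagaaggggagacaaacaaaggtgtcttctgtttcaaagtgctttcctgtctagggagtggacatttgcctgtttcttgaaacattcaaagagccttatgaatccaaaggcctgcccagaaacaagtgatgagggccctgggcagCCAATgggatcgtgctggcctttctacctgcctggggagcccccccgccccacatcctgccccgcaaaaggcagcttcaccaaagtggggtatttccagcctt
CCAAT on either strand was found in 8 of the 9 list members with a promoter in the table, against the 35.7% of all promoters. HLA-DRA has no promoter there, so these are not the same 9 genes as those tested. All 9 tested genes were above PRT220 alone, in a test that called 19.4% of genes higher. Of these 9, 1, CIITA, was above GSK-LSD1 alone (0.33, adjusted p = 0.00494), where 7.01% of genes were called higher. For CD74 the log2 difference from GSK-LSD1 alone was 0.20 (adjusted p = 0.145), which does not show that the levels are alike. MHC class I and its peptide loading changed less, with 4 of 15 genes higher and 1 lower (median 0.12), of which ERAP2, a trimming peptidase, rose from 15.6 ± 0.818 to 26.8 ± 2.32 CPM. The costimulatory ligand CD86 went from 1.88, 3.79 and 4.78 to 25.6, 32.3 and 33.3 CPM, and TNFSF13, the ligand APRIL, fell from 45.6, 45.6 and 51.7 to 24.2, 22.9 and 23.5 CPM (-1.02).

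Granule genes went mostly the other way. Of 14 tested 10 fell and 3 rose, with a median of -0.97. Their summed level, which includes LYZ, overlapped between the groups (3256 to 3332 CPM in DMSO and 3242 to 3564 CPM in the combination). PRTN3, proteinase 3 (ENSG00000196415, chromosome 19, 840960 to 848175), had 106, 105 and 100.1 CPM in DMSO and 18.4, 18.3 and 20.3 CPM in the combination (-2.45 ± 0.20, adjusted p = 3.02e-09), and ELANE, the elastase next to it on chromosome 19, went from 127, 96.7 and 81.6 to 22.3, 51.4 and 48.7 CPM. Neither group pair overlapped. RNASE2 (-1.42), MPO (-0.63) and the core protein of the granule matrix, SRGN (-0.63), fell, while LYZ, MMP9 (2.44) and BPI (3.11, from under 1 CPM) rose. PRTN3 was lower in the combination than with GSK-LSD1 alone (35.7 ± 6.14 CPM; adjusted p = 0.00307) and than with PRT220 alone (105 ± 21.8 CPM; adjusted p = 5.01e-09). Lysosomal proteins rose in 15 of 29 cases and fell in 6 (median 0.15), with the cathepsins CTSZ (0.97), CTSB (0.94) and CTSS (0.82) among the highest and LIPA (-0.43) among the lowest.

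Of 27 myeloid transcription factors 12 rose and 10 fell. GATA2, a progenitor factor (ENSG00000179348, chromosome 3, 128479427 to 128493185), had 52.2, 56.4 and 56.9 CPM in DMSO and 10.5, 13.4 and 13.5 CPM in the combination (-2.15 ± 0.123, adjusted p = 1.45e-11). It was at 22.2 ± 4.64 CPM with PRT220 and 24.1 ± 2.67 CPM with GSK-LSD1, and the combination was below both (adjusted p = 1.49e-05 and 2.09e-05). CEBPA, a granulocyte and monocyte factor, went from 273, 275 and 304 to 157, 184 and 178 CPM, and SPI1, which encodes PU.1, was not called (-0.15). BCL6, a repressor of lymphoid and myeloid cells, went from 1.09, 1.25 and 1.26 to 14.7, 13.7 and 15.1 CPM (3.58). Dendritic cell genes went both ways, with 7 of 14 tested higher and 3 lower (median 0.30). BATF3 was the lowest of them (-1.72), and CLEC9A and XCR1 had 0 counts in all 6 libraries. ZNF366, a regulator of dendritic cells (ENSG00000178175, chromosome 5, 72442652 to 72507727), had 0.327, 0.379 and 0.226 CPM in DMSO and 15, 16.3 and 14.6 CPM in the combination. It was at 1.68 ± 0.201 CPM with PRT220 and 4.73 ± 0.835 CPM with GSK-LSD1, and the combination was higher than both (log2 differences 3.19 and 1.69, adjusted p = 7.83e-12 and 5.49e-07). KIT, the stem cell factor receptor, behaved otherwise. It had 5.73, 6.87 and 7.4 CPM in DMSO and 15.8, 18.9 and 15.9 CPM in the combination (1.33), above GSK-LSD1 alone (8.42 ± 0.499 CPM) but below PRT220 alone (29.2 ± 1.93 CPM; adjusted p = 1.35e-06 and 1.53e-06).

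The RNAs of both inhibited enzymes fell slightly. KDM1A had 131, 118 and 119 CPM in DMSO and 98.6, 106 and 106 CPM in the combination (-0.24, adjusted p = 8.14e-05), and PRMT5 115, 105 and 102 and 90.4, 90.9 and 95.7 CPM (-0.21, adjusted p = 0.0047). Both inhibitors act on the proteins, so these values check nothing about the treatment. GFI1, the partner repressor of LSD1 (ENSG00000162676, chromosome 1, 92474762 to 92486876), rose from 318, 325 and 309.7 to 382, 392 and 384 CPM (0.28 ± 0.0301). GFI1B, its relative, rose from 1.22 ± 0.282 to 3.01 ± 0.477 CPM, although its span overlaps TSC1. The scaffold RCOR1, CoREST itself, was not called (-0.02). Of 15 arginine methyltransferases and cofactors 8 fell and 0 rose, with log2 fold changes from -0.38 (PRMT9) to 0.15. Of 16 fusion targets 5 rose and 4 fell, counts that became 3 and 7 without DMSO C, 3 and 4 without combination A or combination B, and 2 and 5 without both C libraries. HOXA9 had 53.9, 55.1 and 60.2 CPM in DMSO and 52.4, 58.9 and 55.4 CPM in the combination, with overlapping groups (adjusted p = 0.753). BCL2, an anti-apoptotic fusion target, went from 583, 567 and 526 to 374, 350.0 and 344 CPM (-0.65 ± 0.0391, adjusted p = 2.78e-11) and was lower than with either agent (adjusted p = 5.62e-08 and 0.00021).

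Growth and stress signalling genes were mixed. Of 21 feedback genes of MAPK and STAT5 signalling 11 fell and 3 rose (median -0.39). PIM1, a kinase under STAT5, went from 289.5, 348 and 344 to 130.2, 171 and 165 CPM (-1.07), and OSM, a cytokine under STAT5, from 15.5, 19.3 and 18.3 to 5.52, 5.97 and 6.53 CPM (-1.56), lower than with either agent (adjusted p = 1.19e-09 and 3.23e-06). DUSP4, a phosphatase that acts on ERK, rose from 3.11, 3.92 and 4.2 to 31.9, 29.2 and 30.7 CPM. MYC had 312, 322 and 301 CPM in DMSO and 184, 227 and 229 CPM in the combination (-0.55). It was at 210.2 ± 7.61 CPM with GSK-LSD1 alone (log2 difference 0.02, adjusted p = 0.89). Of 30 p53 targets 12 rose and 5 fell, and the 5 became 2 without both C libraries and 3 without DMSO C or without combination A. ZMAT3, a regulator of splicing (1.16), and TP53I3 (0.95), whose span overlaps FAM228B, rose, while CDKN1A, which encodes p21, fell from 89.9, 105 and 113 to 70.6, 76.5 and 78.4 CPM. MDM2 was at 0.00 on the log2 scale and not called. Against PRT220 alone 13 of the 30 p53 targets were lower and 4 higher, where 18.8% and 19.4% of all genes were called. Against GSK-LSD1 alone 9 were higher and 0 lower, where 7.01% and 8.34% of all genes were called. IGF1, a growth factor (ENSG00000017427, chromosome 12, 102395874 to 102481744), went from 4.39, 5.87 and 5.01 to 195, 233 and 223 CPM (5.40 ± 0.169), and the combination was above PRT220 (21.6 ± 4.04 CPM) and GSK-LSD1 alone (129 ± 3.03 CPM; adjusted p = 6.93e-13 and 0.000595).

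Of 32 interferon-stimulated genes 12 rose and 4 fell, and the 4 became 2 without DMSO C, without combination A or without both C libraries. SAMHD1, a dNTP hydrolase (ENSG00000101347, chromosome 20, 36889773 to 36951901), had 275, 287 and 278 CPM in DMSO and 669, 692 and 683 CPM in the combination, and IFI16, a DNA sensor, went from 13.1, 15.5 and 14.8 to 38.2, 43.5 and 43.4 CPM. Both were above each single agent (adjusted p = 1.12e-05 and 0.0043 for SAMHD1, 1.98e-08 and 0.000148 for IFI16). GBP1, a guanylate-binding protein, had at most 2 counts in any DMSO library and 1.13, 1.23 and 0.985 CPM in the combination. Among NF-kB factors and targets 9 of 19 rose and 3 fell, with NFKBIZ (1.45) and ICAM1 (0.97) at one end and CD83 (-1.06) at the other.

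Other large gains were in genes of various roles. VCAN, the matrix proteoglycan versican (ENSG00000038427, chromosome 5, 83471465 to 83582303), had 10.1, 9.87 and 8.94 CPM in DMSO and 468, 509 and 506 CPM in the combination, and was at 8.02 ± 0.417 CPM with PRT220 and 598 ± 17.9 CPM with GSK-LSD1. TPM4, a tropomyosin, went from 408, 432 and 431 to 922, 946 and 949 CPM and VIM, vimentin, from 721, 829.7 and 869.6 to 1104, 1245 and 1247 CPM. KCTD12, a GABA-B receptor auxiliary subunit, rose from 10.4, 11 and 10.3 to 159.6, 178 and 179.6 CPM. RBM47, an RNA-binding protein, rose from 3.14, 2.5 and 2.57 to 51.4, 51.6 and 53.4 CPM. GSK-LSD1 alone gave 198 ± 7.94 CPM for KCTD12 and 59.4 ± 1.95 CPM for RBM47, and the test of the combination against it missed the threshold for both (adjusted p = 0.0537 and 0.24). Among the largest falls, IGLL1, part of the pre-B-cell receptor, went from 5.18, 5.9 and 6.0 to 0.542, 0.761 and 0.913 CPM, OCSTAMP, an osteoclast membrane protein, from 27.8, 32.2 and 35.6 to 6.46, 6.58 and 6.44 CPM, and GLUL, glutamine synthetase, from 1048, 1251 and 1245 to 544, 558 and 563 CPM. OCSTAMP was lower in the combination than with either agent (11.2 ± 2.39 and 11.5 ± 0.559 CPM; adjusted p = 9.7e-05 and 0.000268).

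Summed levels of erythroid, lymphoid and mast cell markers overlapped between the groups, while single members went both ways. The summed level of 9 tested erythroid and megakaryocyte markers was 52.2 to 60.8 CPM in DMSO and 55.8 to 58.9 CPM in the combination, with 2 higher and 3 lower. For 11 lymphocyte markers it was 38.8 to 44.7 and 36.8 to 43.2 CPM, with 2 higher and 3 lower, and for 8 mast cell and eosinophil markers 17.5 to 30.0 and 13.5 to 18.6 CPM, with 2 higher and 1 lower. In each of these lists 1 of the 2 higher calls was lost without both C libraries, and also without DMSO C or combination C (erythroid), DMSO A or combination B (mast cell) and any single library but combination A (lymphocyte). ALAS2, PF4, PPBP, CD2, MS4A1, JCHAIN, KRT19 and COL3A1 had 0 counts in all 6 libraries. Epithelial and fibroblast markers summed to 15.8 to 18.2 CPM in DMSO and 26.4 to 30.1 CPM in the combination, with 4 of 7 tested higher, among them KRT8 (5.25 ± 0.558 to 12.7 ± 1.23 CPM), whose span overlaps KRT18. Neuronal genes under the REST repressor, which also recruits LSD1, had 5 of 9 tested higher and a summed level of 12.9 to 16.0 against 69.0 to 76.8 CPM. In the combination most of that sum was SYT2, a synaptotagmin whose span overlaps PPP1R12B. SYT2 had 2.56, 3.35 and 3.63 CPM in DMSO and 51.4, 59 and 59.8 CPM in the combination. CHGA, STMN2 and NEFL had 0 counts in all 6 libraries. The part of such cells in any result was not tested.

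Transcript usage is the share of a gene's estimated counts on each of its transcripts, taken over its kept transcripts only. Kept transcripts could be paired with a gene and passed edgeR's filter on low counts. Usage changed in 2245 of 11428 genes with at least 2 kept transcripts (19.6%). The test was limma's voom and diffSplice, and the Simes p of each gene was adjusted over all genes. Without both C libraries, which leaves 2 in each group, the count was 1131. In 608 of the 2245 genes a transcript differed by at least 10 percentage points between the group means without overlap of the libraries. These were 908 transcripts, of which 394 gained and 514 lost share. Protein-coding transcripts among them gained in 281 and lost in 453 cases, and transcripts annotated as retained introns gained in 78 and lost in 18. Nonsense-mediated decay transcripts gained in 16 and lost in 22. Over all 74383 transcripts tested the median difference was 0.0261 points, and 0.145 points for the retained introns.

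MTCH1, an insertase of the outer mitochondrial membrane (chromosome 6, 36968141 to 36986298, minus strand), exchanged one coding transcript for another. MTCH1-202, with a coding length of 1167 bases, took 42.4%, 41% and 42.6% of the gene's kept counts in DMSO A, B and C. In the combination it took 64.3%, 66% and 59.1%. MTCH1-201, with 1116 coding bases, fell from 40.5%, 42.5% and 42.5% to 27.4%, 26.2% and 31.5%. The groups did not overlap for either transcript (gene-level Simes adjusted p = 4.9e-14). The mean share of MTCH1-202 was 69.1% with PRT220 alone and 41.0% with GSK-LSD1 alone. PABPC4, a poly(A)-binding protein, moved between coding transcripts of 1893 bases (PABPC4-201, 11.3%, 10.6% and 8.94% to 21.6%, 24.1% and 25.8%) and 1932 bases (PABPC4-202, 29.4%, 29.4% and 27.7% to 15.6%, 13.9% and 15.4%). ABCA7 moved between transcripts with the same coding length of 6438 bases and different starts: ABCA7-201 fell from 76.8%, 81.6% and 79.6% to 61.1%, 61.2% and 63% and ABCA7-202 rose from 16.6%, 11.3% and 13.3% to 26.5%, 26.2% and 23.5%. The level of ABCA7 rose too, as given above.

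A further 4 genes gained share on transcripts annotated as retained introns or for nonsense-mediated decay. CDK5RAP3-231, annotated as a retained intron, rose from 55.1%, 55.7% and 56.5% to 68.2%, 68.2% and 67% and the coding CDK5RAP3-201 fell from 26.9%, 26.1% and 27.8% to 9.18%, 10.5% and 9.21%. AUP1, a lipid droplet protein, had its retained-intron transcript AUP1-204 at 13.8%, 17.5% and 13.3% in DMSO and 28.5%, 27.7% and 29.2% in the combination, against AUP1-201 at 59.9%, 57.9% and 58.5% and 41.9%, 44.1% and 43.8%. ZFC3H1, a factor of nuclear RNA decay, and FNTA, a farnesyltransferase subunit, gained share on decay transcripts. ZFC3H1-212 went from 16.7%, 19.1% and 15.5% to 33.3%, 25.4% and 24% and FNTA-205 from 12.2%, 10.9% and 11.3% to 25.6%, 27.8% and 24.2%. In each of these 4 genes the groups did not overlap. The mean shares with PRT220 alone were 68.0% for CDK5RAP3-231, 28.5% for AUP1-204, 25.4% for ZFC3H1-212 and 30.0% for FNTA-205. With GSK-LSD1 alone they were 57.4%, 17.1%, 20.0% and 12.8%. Usage was not tested between the combination and the single agents, and these values stand side by side.

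SPTAN1, the alpha-II spectrin (chromosome 9, 128552558 to 128633662, plus strand), had its longer coding transcript SPTAN1-202 at 57.7%, 69.5% and 69.1% in DMSO and 37.8%, 37.5% and 27.3% in the combination, and SPTAN1-201 at 28.9%, 18.7% and 9.75% and 40.2%, 31.8% and 46.3%. The DMSO libraries spread most here, with the C library lowest for SPTAN1-201. MAF1, a repressor of RNA polymerase III, moved from MAF1-201 (89.5%, 89.1% and 88% to 74.5%, 72% and 74.5%) to MAF1-205 (7.64%, 8.12% and 9.28% to 23.4%, 25.7% and 23.4%), and BAHCC1, a chromatin protein, from BAHCC1-206 to BAHCC1-201 (28.9%, 24% and 28.7% to 41.5%, 42.1% and 39.4%).

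**Figure D5:**
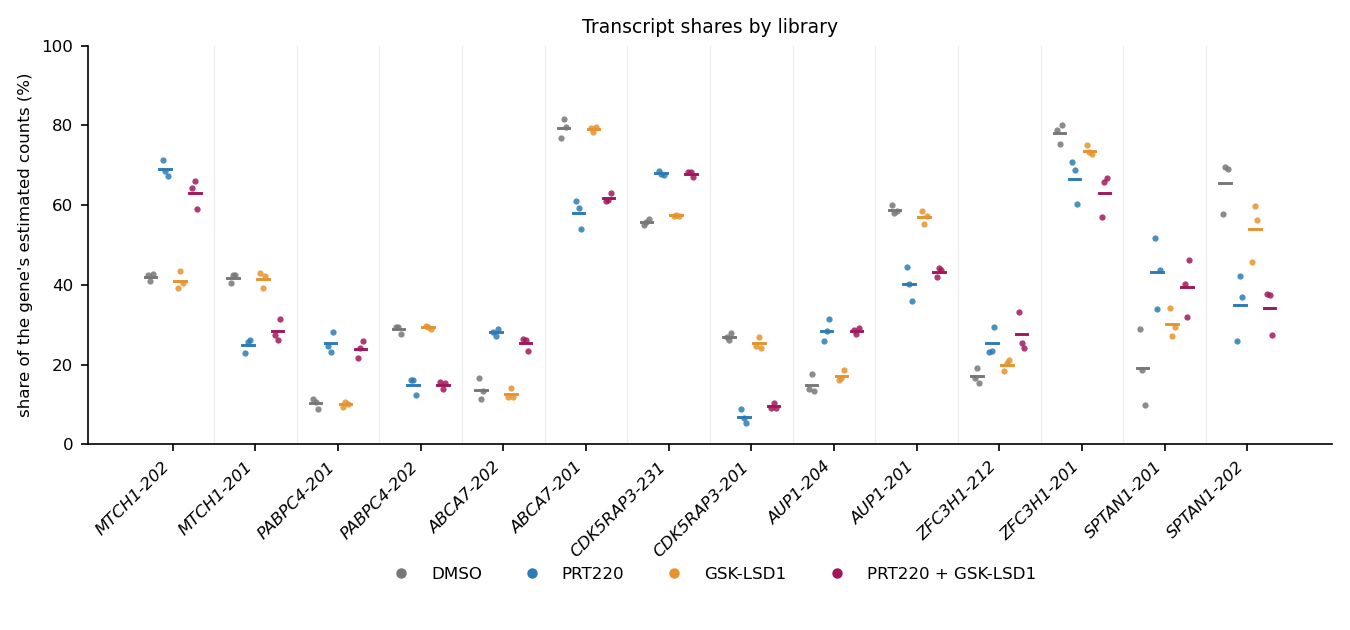
Share of each gene's estimated counts on 14 transcripts of 7 genes (y axis, percent of the counts on kept transcripts). Each library of DMSO, PRT220, GSK-LSD1 and the combination is drawn. Points are single libraries and bars group means (n = 3). The combination sits beside PRT220 alone and GSK-LSD1 alone sits beside DMSO for MTCH1, PABPC4, ABCA7 and CDK5RAP3.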

How the data were processed

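RNA of MV4-11 cells was measured in 24 libraries of 8 groups of 3, and 6 of them (DMSO and PRT220 plus GSK-LSD1) make up the comparison reported here. The authors deposited estimated counts per gene and per transcript in tables of the whole series. The submitters' processing notes list the build GRCh38 and, with no role given, DESeq2 1.28.1, STAR 2.7.3a, Salmon 1.2.1 and R 4.0.0, and the annotation release is not given in the sources used here. Estimated counts need not be whole, so they were rounded before testing. No column was left out (0 not used).

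Of 38048 genes, 35051 could be given a symbol from the gene table of the reference, and 16640 passed edgeR's filterByExpr. Levels were scaled by TMM, and the main test was edgeR 4.0.16 (R 4.3.3), quasi-likelihood, with all 24 libraries and 1 coefficient for each group, so the spread is shared over the 8 groups. The combination was tested against DMSO, PRT220 alone and GSK-LSD1 alone, and p-values were adjusted over all genes by the Benjamini-Hochberg method. Transcripts were paired with genes through GENCODE 29 (167049 of 178398 transcripts, 96.64 to 96.84% of reads) and tested with limma 3.58.1. The fits were checked on simulated data. Gene span overlaps come from the annotation, and estimates for overlapping or near-identical genes are uncertain.

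Genes are named by rule. The first were the 15 largest fold changes and 15 largest CPM differences in each direction. Those were taken among called genes without overlap and with at least 5 CPM in the higher group. Next came up to 4 called members and the highest member of each of 49 lists, and a few genes of the study's targets and markers. For usage the 10 genes of lowest p were named among those with at least 2 transcripts shifted by at least 10 points without overlap. Not every gene that meets the rule appears, and further list members are named beside their counts after their values were seen. Some genes that meet the rule are not reported here. The members and lists were chosen with earlier results of these data known. Alternatives were DESeq2 1.42.0, RLE size factors, no filter on low counts, a replicate block, a term for libraries low in RRP9 (under 10 CPM), only the 2 groups compared, and leaving out libraries. The main test did not pair libraries by the letters A, B and C. The correlations of same-letter deviations were low (0.0818, 0.0606 and 0.154), though each was the highest for its library. Those between different letters ran from -0.113 to 0.0417, and pairing was neither shown nor excluded.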

Additional observations from a re-analysis of the deposited data

How the results depend on the processing

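The 7735 genes called against DMSO were 7744 with RLE size factors, 7742 with DESeq2, 7261 without the filter on low counts, 6723 with only the 2 groups, 6557 without both libraries low in RRP9 and 6799 to 7233 when each library was left out in turn. Libraries of the same letter were not shown to be paired, although each correlated best with its own letter, and a replicate block gave 7530 calls against DMSO, 6103 against PRT220 and 2013 genes with changed transcript usage. With the block in a fit of only the 2 groups, chosen after seeing the data, 6926 were called. Against GSK-LSD1 alone, where 2553 were called, leaving out 1 library gave 1662 to 2033 calls, 752 to 1014 higher and 829 to 1131 lower, the fewest calls without combination B. The 2245 genes with changed usage became 1131 without both libraries low in RRP9, also chosen after seeing the data, and that fit has 2 libraries a group. Other usage settings gave 1558 to 2254. In the comparison with DMSO 857 genes were followed, of which 587 were called. Of these, 481 were called in every alternative, up to 14 for each gene, and 106 were lost in at least 1. None (0) reversed, where a change of sign in a gene called in neither fit was not counted. Tests of single genes against PRT220 alone or GSK-LSD1 alone were not followed in this way. Of 98 list counts against DMSO 20 moved by over 1.5 times in at least 1 alternative. RLE scaling shifted the median of all genes by -0.0212 on the log2 scale. The cause of these differences was not tested. Genes with few counts in DMSO, such as CD163, are limited by depth.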
